A study of Pan troglodytes with 6 samples.

Results

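Myelin is the membrane that oligodendrocytes wrap around axons in the brain. The genes described here encode its proteins, an enzyme that makes a myelin lipid, an enzyme that frees acetate for lipids, and a related membrane protein of neurons and glia. The rule named 9 genes, MBP, UGT8, OPALIN, GPM6B, MOBP, MAG, MOG, CNP and ASPA, and took each from an array feature annotated with that symbol alone. MBP, UGT8, OPALIN, GPM6B, MAG, CNP and ASPA were found, which makes 7 of the 12584 genes that the table names by a single symbol. MOBP and MOG had no feature with that symbol alone and were not analysed here. MBP had 2 features, and the brighter over all arrays was kept as the rule states.

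RNA from 3 cerebellum and 3 liver samples of chimpanzees (Pan troglodytes) was hybridised to the Affymetrix Human Exon 1.0 ST array, whose probes were designed on human sequence. Replicate 1 came from a female of 27 years, replicate 2 from a male of 37 years and replicate 3 from a male of 30 years, with the same sex and age in both tissues. The labels call the samples biological replicates and name no treatment or genotype. They do not say whether a cerebellum and a liver with the same number came from the same animal, or how much white matter each cerebellum sample held.

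Oligodendrocytes extend sheets of membrane that spiral around an axon and are pressed together into compact myelin, which insulates the axon and lets impulses jump between nodes. In the cerebellum most myelin lies in the white matter below the cell layers of the cortex. In bulk RNA, a higher intensity from more oligodendrocytes cannot be told apart from more RNA of a gene per cell.

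All 6 arrays hold the same set of 15143 intensities in different orders, from -169.95 to 6527, with a median of 96.3. An intensity is a linear brightness with background subtracted, and the level of a gene cannot be compared with that of another gene, because their probes differ. Differences are given on the scale log2(intensity + 16.8), with values below 0 set to 0, and they understate the change of dim genes. The tissue labels went with their markers. All 10 measured markers of granule cells and all 10 of Purkinje cells were higher in cerebellum, and all 12 of hepatocytes lower there (limma, threshold 0.05 after adjustment).

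Between the tissues, 5 of the 7 genes were higher in cerebellum, OPALIN was lower, and ASPA did not pass the test. Over all 15143 features, 26.7% were called higher in cerebellum and 23.9% lower (limma with Benjamini-Hochberg adjustment, threshold 0.05). The median log2 difference of the 7 genes, cerebellum minus liver, was 2.10, beside 0.04 over all features. For the same 5 genes every cerebellum array lay above every liver array, which held for 31.0% of all features. OPALIN was the gene whose cerebellum arrays all lay below the liver arrays, as 28.5% of all features did.

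**Figure D1:**
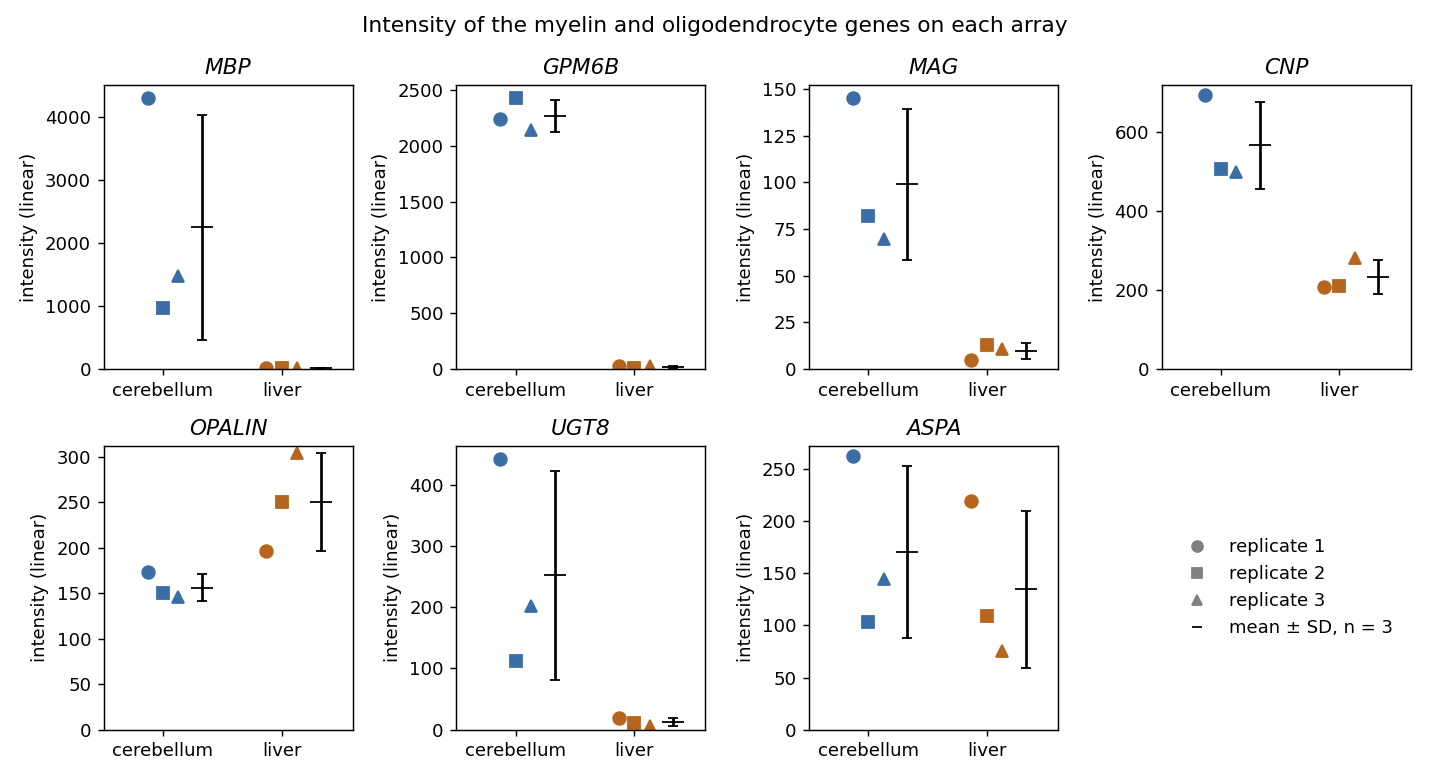
Intensity (linear, each panel with its own axis from 0) of the 7 genes on the 3 cerebellum and 3 liver arrays, with marker shapes for the replicates and bars for the mean ± SD (n = 3). Replicate 1 is the highest cerebellum point in every panel except that of GPM6B, and the largest spread is that of MBP, from 966 to 4297.

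MBP encodes myelin basic protein, which lies on the inner face of the membrane and holds its layers together in compact myelin. Its intensity was 4297, 966 and 1481 on cerebellum arrays 1, 2 and 3 and 20.0, 20.1 and 11.6 on liver arrays 1, 2 and 3. The lowest cerebellum array thus lay far above every liver array, and cerebellum replicate 1 stood far above the other cerebellum arrays. The means were 2248 ± 1793 and 17.2 ± 4.85 (SD, n = 3 per tissue here and below). Cerebellum thus exceeded liver by 5.78 ± 0.47 on the log2 scale (± SE from limma here and below, adjusted p = 1.83e-05), and by 5.17 without cerebellum replicate 1.

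The dimmer MBP feature behaved in the opposite way. It read 8.13, 14.1 and 11.5 in cerebellum and 151, 144 and 181 in liver, a difference of -2.64 ± 0.18 on that scale (limma, adjusted p = 5.54e-06). Its cerebellum values all lay under 16.8, the 10th percentile of all intensities, where this scale understates differences. Replicate 1 was the lowest of them, at -0.25 on the log2 scale against the mean of the other 2. At such dim values neither this order nor the closeness of the cerebellum arrays can be set against the shift of the brighter feature. Both features carry the symbol MBP alone, and the positions of their probes in the gene were not used here. With the 2 features averaged on the log2 scale, the difference of MBP was 1.57.

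GPM6B is a membrane protein of the proteolipid family that is made by neurons as well as by glia. It read 2243, 2426 and 2145 in cerebellum and 21.9, 3.74 and 22.6 in liver. The cerebellum arrays differed little from each other and all lay far above the liver arrays. The means of 2271 ± 143 and 16.1 ± 10.7 gave a log2 difference of 6.18 ± 0.27 (limma, adjusted p = 5.48e-07). GPM6A, a related protein of neurons, was at 5118, 5389 and 5389 in cerebellum and 297, 257 and 317 in liver, which differ by 4.12 (log2, limma, adjusted p = 3.69e-07).

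MAG, the myelin-associated glycoprotein, sits in the innermost layer of the sheath, where it faces the axon. It was at 145, 82.2 and 69.5 in cerebellum and at 4.85, 12.7 and 10.9 in liver. Replicate 1 was again the highest cerebellum array, and the tissues did not overlap. Its means were 98.9 ± 40.5 and 9.50 ± 4.12, which differ by 2.10 ± 0.26 in log2 (limma, adjusted p = 2.22e-04).

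CNP, a cyclic nucleotide phosphodiesterase, is found in the cytoplasm-filled channels that stay open in the sheath. It was at 695, 507 and 499 in cerebellum and 208, 209 and 282 in liver. The tissues did not overlap, but the liver arrays were not dim, since all of them lay above the median intensity of the array. The means of 567 ± 111 and 233 ± 42.2 differed by 1.22 ± 0.21 on the log2 scale (limma, adjusted p = 0.00128).

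OPALIN, a small membrane glycoprotein of oligodendrocytes, went the other way. Its intensity was 173, 149.8 and 146 in cerebellum and 197, 251 and 304 in liver. The arrays of each tissue stayed apart, but the gap between the highest cerebellum and the lowest liver array was small. The means were 156 ± 14.8 and 250.5 ± 53.7, a log2 difference of -0.61 ± 0.20 (limma, adjusted p = 0.0309). The call was lost when any array except liver replicate 1 was left out, at adjusted p values of 0.0531 to 0.108 and differences of -0.68 to -0.47. It was also lost once the arrays were aligned on 44 general genes of ribosomes, proteasomes and respiration (log2 difference -0.25, limma, adjusted p = 0.447). Those general genes were not even between the tissues, with a median log2 difference of -0.40 beside 0.04 over all features. Aligning on them moved every difference toward cerebellum by 0.36.

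UGT8 makes galactosylceramide, a lipid that myelin holds in large amounts. It was at 442, 111 and 202 in cerebellum and at 19.5, 11.6 and 6.24 in liver. Every cerebellum array lay above every liver array, and the cerebellum arrays differed from each other about as widely as those of MBP. Its means were 252 ± 171 and 12.5 ± 6.70, a log2 difference of 3.03 ± 0.42 (limma, adjusted p = 4.13e-04).

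ASPA, aspartoacylase, splits N-acetylaspartate and so frees acetate that oligodendrocytes can use for lipids. Its values were 262, 103 and 144 in cerebellum and 219.7, 109 and 75.6 in liver. The tissues overlapped, and replicate 1 was the highest array in both. The means of 170.1 ± 82.5 and 135 ± 75.5 differed by 0.33 ± 0.40 on the log2 scale (limma, adjusted p = 0.528). Without cerebellum replicate 1 the difference was -0.0083 (adjusted p = 0.989).

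By the features kept, the genes thus fell into those with little signal in liver and those with clear signal there. MBP, GPM6B, MAG and UGT8 were under 38.3, the lower quartile of all intensities, on every liver array. CNP, OPALIN and ASPA were above it on every liver array. So was the dimmer MBP feature, at 151, 144 and 181, so the place of MBP depends on the feature.

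**Figure D2:**
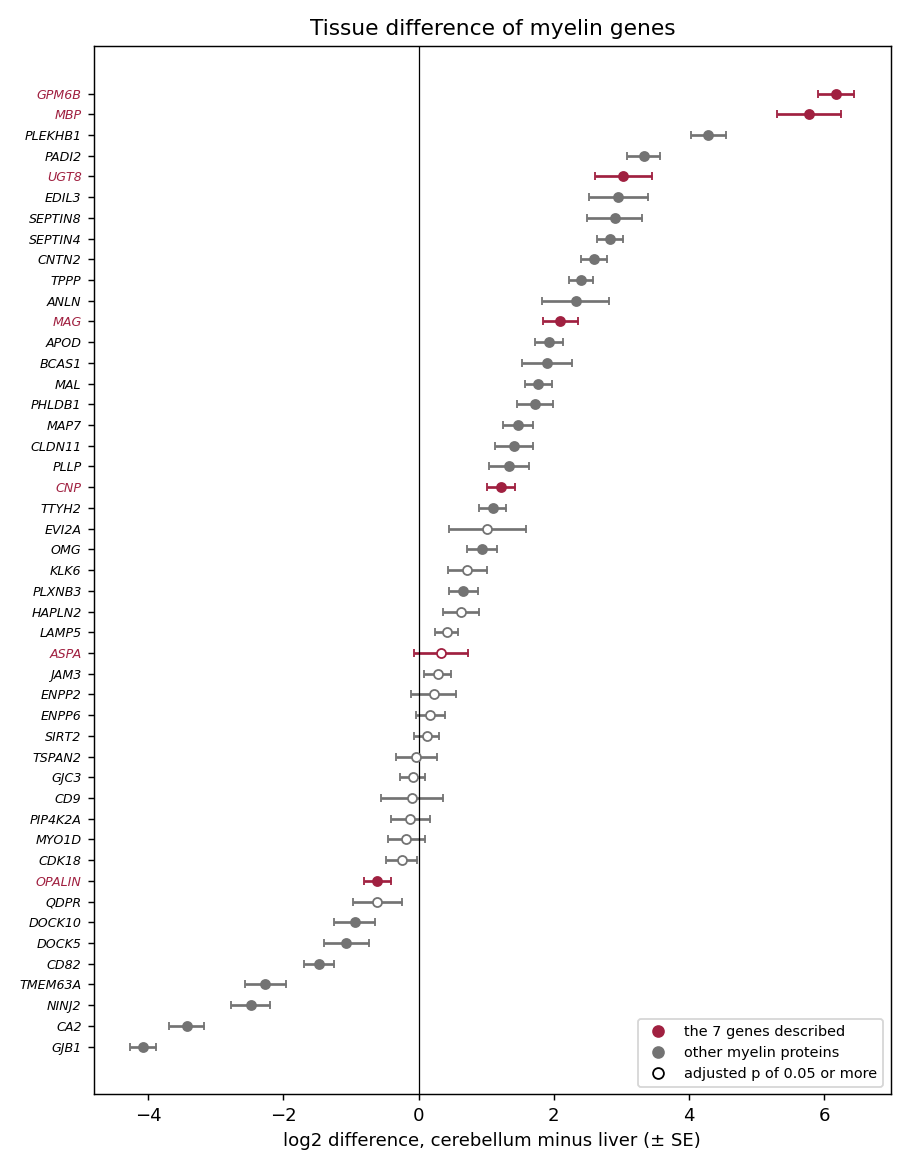
Log2 difference, cerebellum minus liver, ± SE (limma, n = 3 arrays per tissue) for the 7 genes described and 40 other myelin proteins, filled where the adjusted p was under 0.05. GPM6B and MBP have the highest values, at 6.18 and 5.78, and GJB1 the lowest, at -4.07.

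Within the cerebellum, the arrays differed by very different amounts from gene to gene. The highest cerebellum array exceeded the lowest 4.45-fold for MBP, 3.96-fold for UGT8, 2.54-fold for ASPA and 2.09-fold for MAG on the linear scale. The same ratio was 1.39 for CNP, 1.19 for OPALIN and 1.13 for GPM6B. On the log2 scale with its pseudocount, MBP, UGT8 and ASPA spanned at least 2-fold, with ranges of 2.13, 1.84 and 1.22, and MAG, at 0.91, was just under. Such a range was seen for 5.29% of all features, and the median range was 0.91 for the 7 genes and 0.37 over all features. These differences lie between single arrays, with no replicate behind them, so no test applies.

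Among 7469 features with a mean cerebellum intensity of at least 100, 99.6% had a smaller range than MBP, 99.3% a smaller range than UGT8 and 97.1% a smaller range than ASPA. GPM6B lay at the other end, with 14.6% of these features below it, and OPALIN had 21.5% below it. The wide range is therefore not shared by all of the 7 genes.

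Replicate 1 was the highest cerebellum array for 6 of the 7 genes, against 32.0% of all features. Its shift, the log2 level minus the mean of the other 2 cerebellum arrays, was 1.83 for MBP, 1.45 for UGT8, 1.00 for ASPA, 0.81 for MAG, 0.45 for CNP and 0.21 for OPALIN. GPM6B had a shift of -0.02, which became 0.37 with arrays aligned on the general genes, beside a median of 0.39 over all features. A shift of at least 1, which is 2-fold, was reached by 3 of the 7 genes and by 0.720% of all features, with ASPA at the limit. The median shift of the 7 genes was 0.81 in replicate 1, -0.26 in replicate 2 and -0.18 in replicate 3, beside -0.0047, -0.0075 and 2.1e-04 over all features.

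**Figure D3:**
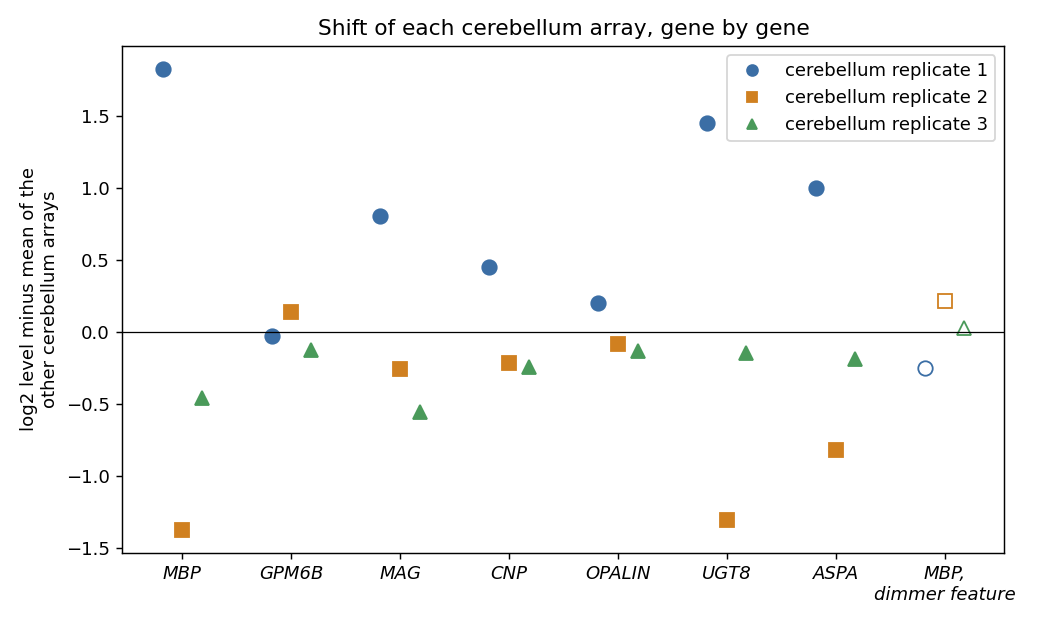
Shift of each cerebellum array, as log2 level minus the mean of the other 2 cerebellum arrays, for the 7 genes and for the dimmer MBP feature (open markers). Replicate 1 lies highest for MBP, at 1.83, and near 0 for GPM6B. For the dimmer MBP feature it is the lowest array, but all cerebellum values of that feature lie under 16.8, the 10th percentile.

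The other cerebellum arrays did not keep one order. Replicate 3 exceeded replicate 2 for MBP, UGT8 and ASPA, by 0.61, 0.77 and 0.42 on the log2 scale. For MAG and GPM6B replicate 3 was the lower one, by differences of -0.20 and -0.18, and for OPALIN and CNP it differed by -0.03 and -0.02. Replicate 1 exceeded replicate 2 by 2.13 for MBP and by 1.84 for UGT8, and it exceeded replicate 3 by 1.53 and 1.07. Replicate 1 also differs from the others in sex and age, and with 1 sample these cannot be told apart from the piece of tissue taken.

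**Figure D4:**
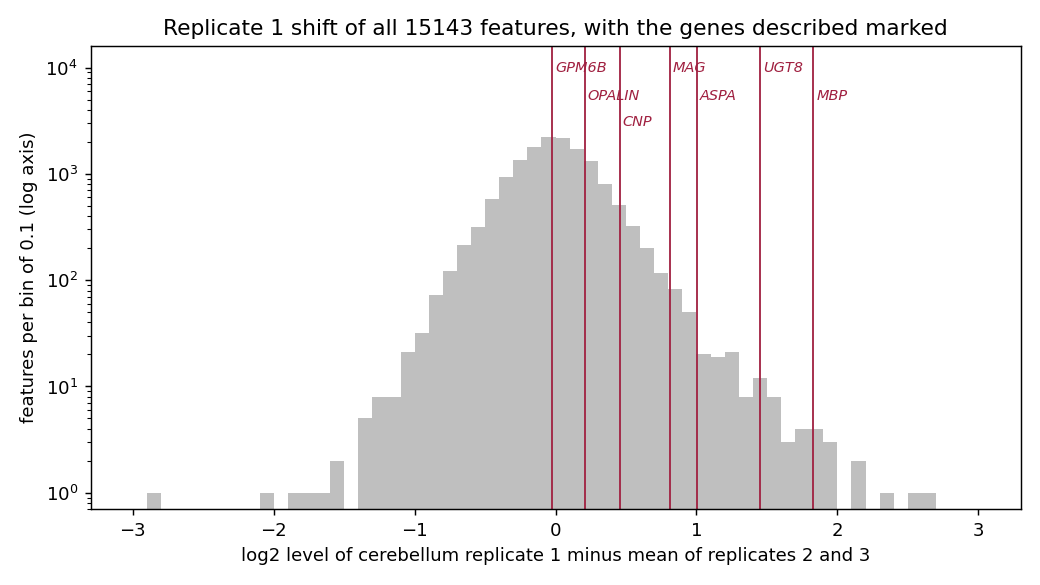
Number of features (log axis) by the shift of cerebellum replicate 1 against the mean of replicates 2 and 3 on the log2 scale, for all 15143 features, with the 7 genes as vertical lines. MBP, UGT8 and ASPA lie at 1 or above, where 0.720% of features lie, and GPM6B lies near the centre.

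In liver the 7 genes showed no such order. Their median shift was 0.18, -0.03 and 0.13 in liver replicates 1, 2 and 3. ASPA had the widest range among the liver arrays, 1.36 on the log2 scale, and was the only one of the 7 genes at or above 2-fold on that scale, which 12.9% of all features reached. On the linear scale the highest liver array exceeded the lowest 6.05-fold for GPM6B, 3.13-fold for UGT8, 2.91-fold for ASPA and 2.62-fold for MAG, of which GPM6B, UGT8 and MAG were dim there. The shift of ASPA in liver replicate 1 was 1.13, beside 1.00 in cerebellum replicate 1.

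Other myelin proteins followed in part. Of 40 measured genes of this list, 18 were higher in cerebellum, 7 were lower and 15 did not pass, with a median log2 difference of 0.65. The shares over all features, to be set beside this and every list below, were 26.7% higher and 23.9% lower. PLEKHB1, a membrane-associated protein, PADI2, an enzyme that citrullinates MBP, and EDIL3, a secreted adhesion protein, had the largest differences toward cerebellum, at 4.28, 3.33 and 2.95. The gap junction protein GJB1, which hepatocytes also make, and the carbonic anhydrase CA2 had the largest toward liver, at -4.07 and -3.43. Replicate 1 was the highest cerebellum array for 25 of the 40, and its shift reached 1 for 7 of them. ANLN, an anillin that with septins forms filaments in myelin, was at 352, 70.8 and 86.7 in cerebellum, a shift of 1.95. EDIL3 and BCAS1, a protein of oligodendrocytes that begin to myelinate, had shifts of 1.22 and 1.21. The other 4 genes of these 7, named after their values were seen, were EVI2A, DOCK5, DOCK10 and PIP4K2A, with shifts of 1.71, 1.19, 1.10 and 1.00. PLLP, plasmolipin, had the smallest shift among genes of this list with a cerebellum mean of at least 100, at -0.31. The median shift of the list in replicate 1 was 0.36.

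Genes of lipid synthesis were split between the tissues. Of 26 measured genes, UGT8 and ASPA included, 5 were higher in cerebellum and 10 in liver, with a median log2 difference of -0.11. Of all features 26.7% were higher in cerebellum and 23.9% lower, so the count toward cerebellum was under that share. Without liver replicate 3, or with aligned arrays, 8 were higher in cerebellum. The desaturase SCD5 was at 1183, 1639 and 1237 in cerebellum and 15.4, 23.5 and 16.3 in liver, a log2 difference of 5.28 (limma, adjusted p = 3.05e-07). The lipid transporter ABCA2 and the ceramide synthase CERS5 followed at 1.75 and 1.20. CERS2, the ceramide synthase of very long chains, and DHCR7, which acts late in cholesterol synthesis, were the largest toward liver, at -2.83 and -2.36. The median shift of this list in cerebellum replicate 1 was -0.09. UGT8 and ASPA were its only genes with a shift of at least 1, ABCA2 had 0.60, and the desaturase FADS2 had -0.82.

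Transcription factors of the lineage were split. Of 13 measured, 6 were higher in cerebellum, TCF7L2 was lower and 6 did not pass, with a median log2 difference of 0.31. ST18, ZNF536 and NKX2-2 had the largest differences, at 3.77, 3.26 and 1.49, and TCF7L2, a factor of the Wnt pathway also used in liver, had -2.03. SOX10, OLIG2 and MYRF, which are needed to make or maintain oligodendrocytes and are named after their values were seen, had 0.10, 0.28 and -0.04 (limma, adjusted p = 0.663, 0.169 and 0.916). OLIG1 and SOX8, named likewise, were called higher, at 1.32 and 1.12 (limma, adjusted p = 4.88e-04 and 0.0259). SOX10, OLIG2 and OLIG1 lay under 96.3, the median of all intensities, on every array. The median shift in cerebellum replicate 1 was 0.13, and the shift reached 1 for none of these genes. MYRF had the largest at 0.78, with 109, 52.4 and 60.5 in cerebellum, and ST18 had 0.47.

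Of 14 measured receptors and signalling genes of oligodendrocytes, 7 were higher in cerebellum and 3 lower, with a median log2 difference of 0.61. Without cerebellum replicate 1, 4 were higher. GPR37, an orphan receptor of maturing oligodendrocytes, was at 372, 153 and 232 in cerebellum and 22.6, 11.9 and 27.9 in liver, 2.78 apart on the log2 scale (limma, adjusted p = 1.20e-04). The potassium channel KCNJ10 and the kinase FYN followed at 2.02 and 1.78, and the neuregulin receptors ERBB3 and ERBB2 had -2.97 and -2.22. LPAR1, a receptor of lysophosphatidic acid, was at 452, 161 and 160 in cerebellum. It had the largest replicate 1 shift of this list at 1.41, and GPR37 had 0.92, while the median of the list was 0.02.

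Markers of oligodendrocyte precursors were mostly higher in cerebellum. Of 15 measured, 9 were higher in cerebellum and 2 lower, with a median log2 difference of 1.00. The lower count was 1 without cerebellum replicate 1 or 3 or liver replicate 2 and with aligned arrays, and up to 3 over the arrays left out. PTPRZ1, a receptor phosphatase that astrocytes also make, MEGF11 and the proteoglycan BCAN had log2 differences of 3.80, 2.79 and 2.51, and SMOC1 and C1QL1 had -2.32 and -0.75. In cerebellum replicate 1 the median shift was 0.09, and this array was the highest for 7 of the 15 genes and the lowest for 4. The matrix protease MMP16 and the proteoglycan VCAN had the largest shifts at 0.52 and 0.42, while PTPRZ1 lay at -0.67 and the matrix protein TNR at -0.83.

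Axonal partners of myelin were nearly all higher in cerebellum. Of 17 measured genes of nodes and paranodes, 16 were higher and 0 lower, and the spectrin SPTBN1, named after its value was seen, had 0.25. The sodium channel SCN2A, the paranodal adhesion protein CNTN1 and ADAM22 had log2 differences of 6.09, 5.49 and 5.41. Of 9 neurofilament and axon genes, 8 were higher and 0 lower, with a median of 4.43. The median replicate 1 shift was 0.09 for nodes and paranodes and -0.26 for the axon genes. Replicate 1 was the highest cerebellum array for 9 of the 17 node and paranode genes and the lowest for 4, with CNTNAP2, SCN2A and NFASC at shifts of 0.71, 0.68 and 0.63. The heavy neurofilament NEFH was at 137, 322 and 242 in cerebellum, a replicate 1 shift of -0.94, and CNTNAP1, the partner of CNTN1 on the axon, had -0.49.

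Markers of other cells also differed among the cerebellum arrays. In cerebellum replicate 1 the median shift was -0.81 for 10 Purkinje cell markers, -0.32 for 10 of astrocytes and Bergmann glia and -0.27 for 10 of granule cells. With arrays aligned on the general genes these medians were -0.41, 0.07 and 0.12, so the direction turned for astrocyte and granule cell markers, beside 0.39 over all features. Purkinje markers summed to an intensity of 5154 in replicate 1, 9257 in replicate 2 and 5851 in replicate 3, and to 578 to 751 in liver. GAD1, which makes GABA, and PPP1R17, a phosphatase inhibitor of Purkinje cells, had replicate 1 shifts of -1.09 and -1.06. Astrocyte markers summed to 7381, 11016 and 9085 in cerebellum and 1696 to 3552 in liver, and granule cell markers to 10450, 11147 and 12002 (liver, 301 to 369). None of these markers was at 0 or below on any array. The part of these cells in the shift of the myelin genes was not tested.

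Microglia and macrophage, endothelial, and choroid plexus and meninges markers had median shifts of -0.09, -0.18 and -0.14 in replicate 1 and 0.41, 0.57 and 0.29 in replicate 2. With aligned arrays the replicate 1 medians became 0.30, 0.22 and 0.25, still below the 0.39 over all features. Their sums over the cerebellum arrays ran from 460 to 681, from 767 to 1402 and from 344 to 893. CLIC6 of the choroid plexus list was below 0 on every liver array and above 0 on every cerebellum array. P2RY12, a receptor of microglia, stood apart from its list with 187, 56.2 and 50.4 in cerebellum, a replicate 1 shift of 1.54. Schwann cells make the myelin of peripheral nerves, and 5 of their 11 listed markers were measured, with a median shift of 0.06 and a summed intensity of 192 to 258 in cerebellum. The 12 hepatocyte markers had a median shift of 0.12 and summed to 548, 302 and 452 in cerebellum, against 32768 to 39666 in liver. The cytochrome CYP2E1 gave 318, 50.8 and 267 of these cerebellum sums, a replicate 1 shift of 1.28, and without it the sums were 229.6, 252 and 185. The part of these cells was not tested.

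The 44 general genes of ribosomes, proteasomes and respiration had a median shift of -0.31 in cerebellum replicate 1 and 0.36 in replicate 2. Aligning the arrays on them raised every replicate 1 shift by 0.40, that of all features included, so the median of the 7 genes became 1.21 beside 0.39 over all features.

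**Figure D5:**
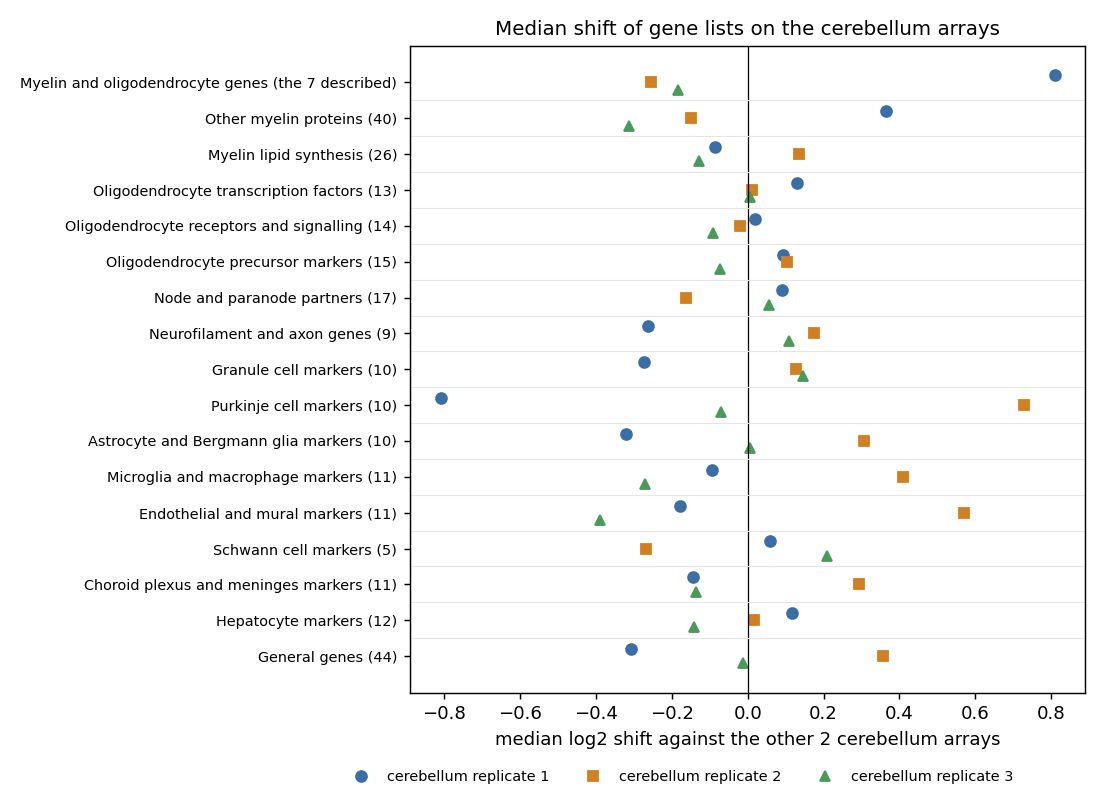
Median log2 shift of each cerebellum array against the other 2 for the 7 genes and for the other gene lists, with the number of measured genes in parentheses. On the deposited scale, in replicate 1, the 7 genes lie at 0.81 and other myelin proteins at 0.36, while Purkinje cell markers lie at -0.81.

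Genes were also ranked by the excess of cerebellum replicate 1 over both other cerebellum arrays, measured by the smaller of the 2 log2 differences. This ranks the size of the excess, not likeness to MBP. Of 6210 genes with a single symbol and a cerebellum mean of at least 100, MBP ranked 9, UGT8 22, ASPA 46, CNP 220, OPALIN 862 and GPM6B 3000. MAG, with a mean of 98.9, was just under the limit. The genes above MBP were DPYS, SPP1, NTS, ANLN, CAMSAP1, DNAJB4, CBLN4 and LHFPL4, with an excess of 2.35 to 1.64, beside 1.53 for MBP. SF3B2, MAN2A1 and GCNA followed with 1.52, 1.47 and 1.45. DPYS, dihydropyrimidinase of pyrimidine breakdown, was at 465, 52.1 and 77.6 in cerebellum and 1106, 1143 and 684 in liver. SPP1, the secreted phosphoprotein osteopontin, was at 1699, 338 and 307 in cerebellum, and NTS, the peptide neurotensin, at 876, 186 and 172. These genes were chosen for this excess, so their values describe it and test nothing.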

How the data were processed

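Intensities of chimpanzee cerebellum and liver (3 arrays each) came from the authors' deposited table of 15143 features. The submitters' processing notes name GCOS, with no version. The sources used here do not state the background correction, the summary of probes or any masking of probes that mismatch chimpanzee sequence. The deposited intensities hold 93 values below 0 per array and 0 sorted positions that differ between arrays, so they had been quantile normalized. Array number limits the precision.

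Names came from the platform annotation: 12685 features had 1 symbol, 1780 several and 678 none. Features sharing a symbol were represented by the one with the highest mean intensity.

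Values below 0 were set to 0, 16.8 (the 10th percentile) was added, and log2 taken. All features were fitted with limma 3.58.1 (lmFit, eBayes, two-sided) in R 4.3.3 without a block, with Benjamini-Hochberg adjustment over all features. The code was tested on simulated data. The p-values set the tissue difference against the spread between 3 arrays per tissue, which limma moderates with the spread of all features.

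The genes and lists were chosen with earlier results of these data known. Named were the 7 genes. Each myelin, oligodendrocyte or axon list added its largest called differences (3 toward cerebellum, 2 toward liver), the 3 largest replicate 1 shifts and the smallest, the shifts at a cerebellum mean of 100 or more, though the text prints only part of these. Other cell types could add 2 shifts each. Then came the 12 genes with the largest replicate 1 excess. Alternatives were 2 other pseudocounts, alignment on general genes, a replicate block, a filter on dim features, a trended prior, averaged features and leaving out each array. Using the dimmer MBP feature and leaving CYP2E1 out of the hepatocyte sum were added after seeing the data.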

Additional observations from a re-analysis of the deposited data

How the results depend on the processing

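The 5 genes higher in cerebellum stayed at 5 with every array left out in turn, at pseudocounts of 10.2 and 38.3, with aligned arrays, the dim filter, the trended prior and the block. The count of lower genes, OPALIN alone, was 0 with aligned arrays and 0 to 1 over the arrays left out. With the dimmer MBP feature 4 genes were higher, the lower count was 2 and the median log2 difference of the 7 genes 1.22. The MBP difference was then -2.64 and its replicate 1 shift -0.25, a shift between cerebellum values all under 16.8. The ASPA difference ran from -0.0083 (without cerebellum replicate 1) to 0.70 over the arrays left out. The cause of these changes was not tested. Aligning the arrays raised every replicate 1 shift by 0.40, so that of GPM6B became 0.37, beside a median of 0.39 over all features.

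Aligned arrays moved the median difference of all features by 0.36 and left 2313 features lower in place of 3617, with 8 lipid genes higher and 1 precursor marker lower. Over the arrays left out, 5 to 8 lipid genes and 4 to 6 receptor genes were higher and 1 to 3 precursor markers lower.

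With the replicate number as a block the OPALIN difference stayed at -0.61 (limma, adjusted p = 0.0557), which made the lower count 0. Over all features 3994 were then higher and 3538 lower. Same-numbered arrays had deviations that correlated at 0.11, 0.16 and -0.14 across features. Cerebellum 1 and 2 correlated best with the liver array of the same number, but cerebellum 3 with liver 1 (0.24). Such correlations cannot show whether same-numbered samples came from the same animal. As the labels do not say so, the numbers were not taken as pairs.

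Dim genes limit precision: by the features kept, 4 of the 7 had liver values under the lower quartile. Their differences thus depend on the pseudocount, as that of MAG did (2.43 at 10.2 and 1.49 at 38.3).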
